A study of Rattus norvegicus with 24 samples.

Results

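Endothelial and blood-brain barrier genes were followed through RNA-seq libraries of the paraventricular nucleus (PVN) of the hypothalamus and the central amygdala (CEA) of the rat. The genes were taken by name: 10 symbols were looked up among the 35032 genes of the count table, 8 had a row, and 7 of those had counts above 0 in any of the 24 libraries. The study took male Sprague-Dawley rats, 7 weeks old, and divided 12 of them into 4 groups, and the table holds 3 libraries of each group in each region. The NC rats were restrained and not operated. The HT rats were restrained and had part of the left liver lobe removed under isoflurane. The EA rats had the same operation with electroacupuncture, which is current passed through needles, at the Zusanli (ST36) and Sanyinjiao (SP6) points 24 h before and right after it. The SEA rats had the operation and needles without current. The EA and SEA rats were restrained too, and were awake during the needling. Brain tissue was taken 24 h after the last stimulation. No group had an operation without liver removal, so the operation, the anaesthetic and the loss of liver cannot be told apart.

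Brain capillaries are lined by endothelial cells joined by tight junctions, which close the path between cells. What passes has to use carriers in the cell membrane: glucose enters on GLUT1, the product of Slc2a1, and the ABC transporters Abcg2 and Abcb1a pump drugs and other compounds back into the blood. Growth and stability of the vessel wall depend on receptors for VEGF (Flt1 and Kdr) and for angiopoietins (Tek). In whole tissue, fewer endothelial cells and less RNA per cell cannot be told apart.

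Of the 10 symbols, Pecam1, an adhesion molecule at endothelial junctions, and Abcb1a were not analysed here. Cldn5, the main claudin of brain endothelial tight junctions, had a row with 0 counts in all 24 libraries, which is under the floor of 3 counts in each. Its 1425 bases on chromosome 11 (minus strand, 86356294 to 86357718 in the table's coordinates) lie wholly inside Cdc45 on the opposite strand, and Cdc45 had 34 to 89 counts a library. Endothelial RNA itself was present: Cdh5, VE-cadherin of the endothelial junction, had 11.8 ± 0.690 CPM in PVN NC and 16.7 ± 1.68 in CEA NC (mean ± SD, n = 3), where CPM are a library's counts scaled to a common total. Why the row of Cldn5 is at 0 was not tested, and nothing is read from it about this gene.

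The remaining 7 genes had counts in every library. Per length of transcript, the order in PVN NC was Slc2a1 at 62.8 ± 7.24 CPM per kb, Flt1 at 9.20 ± 1.35, Vwf at 6.29 ± 0.573, Abcg2 at 4.40 ± 2.10, Tek at 4.23 ± 0.895, Kdr at 2.67 ± 0.0554 and Pcdh12 at 0.439 ± 0.0034 (SD, n = 3). In CEA NC, Slc2a1 had 89.7 ± 15.2 CPM per kb, Flt1 17.3 ± 0.630, Vwf 11.8 ± 1.46, Tek 7.30 ± 0.890, Abcg2 5.20 ± 2.33, Kdr 3.92 ± 0.264 and Pcdh12 0.810 ± 0.254. Abcg2 spread from 2.06 to 6.11 CPM per kb in PVN NC and from 2.70 to 7.30 in CEA NC, which overlaps Tek and Kdr in both regions and Vwf in PVN, so its place in the order was not settled by 3 libraries. Slc2a1 was the highest of the 7 in all 8 groups and Pcdh12 the lowest. Pcdh12, a protocadherin of endothelial cell contacts, had only 6 to 98 counts a library, and its values carry the largest counting error.

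Promoters are shown for the genes whose levels moved most closely with or against each other within groups: the VEGF receptors Kdr and Flt1, and Slc2a1. RefSeq had a promoter for 7 of the 10 symbols, and the 250 bases before the start are given in build GRCr8, which is not the build of the count table. Capitals mark GGAA or, from the other strand, TTCC, the core of the motif read by ETS factors such as Erg and Fli1.
Kdr, chr14:32571813-32572062, plus strand: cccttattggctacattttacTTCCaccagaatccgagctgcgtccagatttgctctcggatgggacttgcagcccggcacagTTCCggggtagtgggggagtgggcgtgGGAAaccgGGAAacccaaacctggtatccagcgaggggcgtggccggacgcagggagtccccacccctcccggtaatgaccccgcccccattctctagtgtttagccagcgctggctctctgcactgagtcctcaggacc
Flt1, chr12:12333180-12333429, plus strand: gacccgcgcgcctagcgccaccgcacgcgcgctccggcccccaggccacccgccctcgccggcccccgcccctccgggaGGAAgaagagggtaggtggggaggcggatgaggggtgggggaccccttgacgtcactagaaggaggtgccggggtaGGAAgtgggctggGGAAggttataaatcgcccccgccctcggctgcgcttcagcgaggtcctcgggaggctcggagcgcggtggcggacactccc
Slc2a1, chr5:138002272-138002521, plus strand: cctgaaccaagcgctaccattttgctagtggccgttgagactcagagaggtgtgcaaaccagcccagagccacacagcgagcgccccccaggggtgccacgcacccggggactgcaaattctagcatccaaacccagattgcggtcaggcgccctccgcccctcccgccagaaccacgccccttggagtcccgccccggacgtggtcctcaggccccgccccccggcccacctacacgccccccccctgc
The core was found 4 times before Kdr, 3 times before Flt1 and 0 times before Slc2a1. At least 4 copies were present in 34.7% of the 33469 promoters of this length, at least 3 in 55.5%, and 93.2% had one or more. The core of the hypoxia response element, ACGTG or CACGT on the other strand, was found 1 time before Slc2a1, 46 bases from the start, and in 16.6% of all promoters. The matches did not overlap in these windows, and a match is a description of the sequence only.

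The libraries held 13152772 to 18607032 counts. Mitochondrial genes took 7.07 to 8.77% of the counts in PVN libraries and 3.80 to 14.4% in CEA libraries. The 3.80% was CEA EA replicate 2 alone, and the next lowest CEA library had 10.1%. The study left 1 CEA EA set, which it does not name, out of its co-expression network for its large differences. All 3 CEA EA libraries were kept here. Region markers fitted the labels: 9 of 9 tested hypothalamic markers were lower in CEA than in PVN among NC libraries, and 9 of 10 markers of the central amygdala and striatum were higher. The summed choroid plexus and ependyma markers ran from 27.2 to 1833 CPM over the CEA libraries and from 42.8 to 85.0 over the PVN libraries. High sums were in CEA SEA replicate 2 (1833), CEA NC replicate 2 (1092) and CEA EA replicate 1 (400). The remaining CEA libraries had at most 61.1, with 33.8 and 29.3 in CEA NC replicates 1 and 3. The part of this tissue in the values of the 7 genes was not tested. Among these genes, PVN HT replicate 3 and CEA HT replicate 2 stood apart from the other libraries of their groups. PVN NC replicate 2 decided how many genes passed in PVN: without it 5885 genes differed between operated and NC libraries, against 11 with it.

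**Figure D1:**
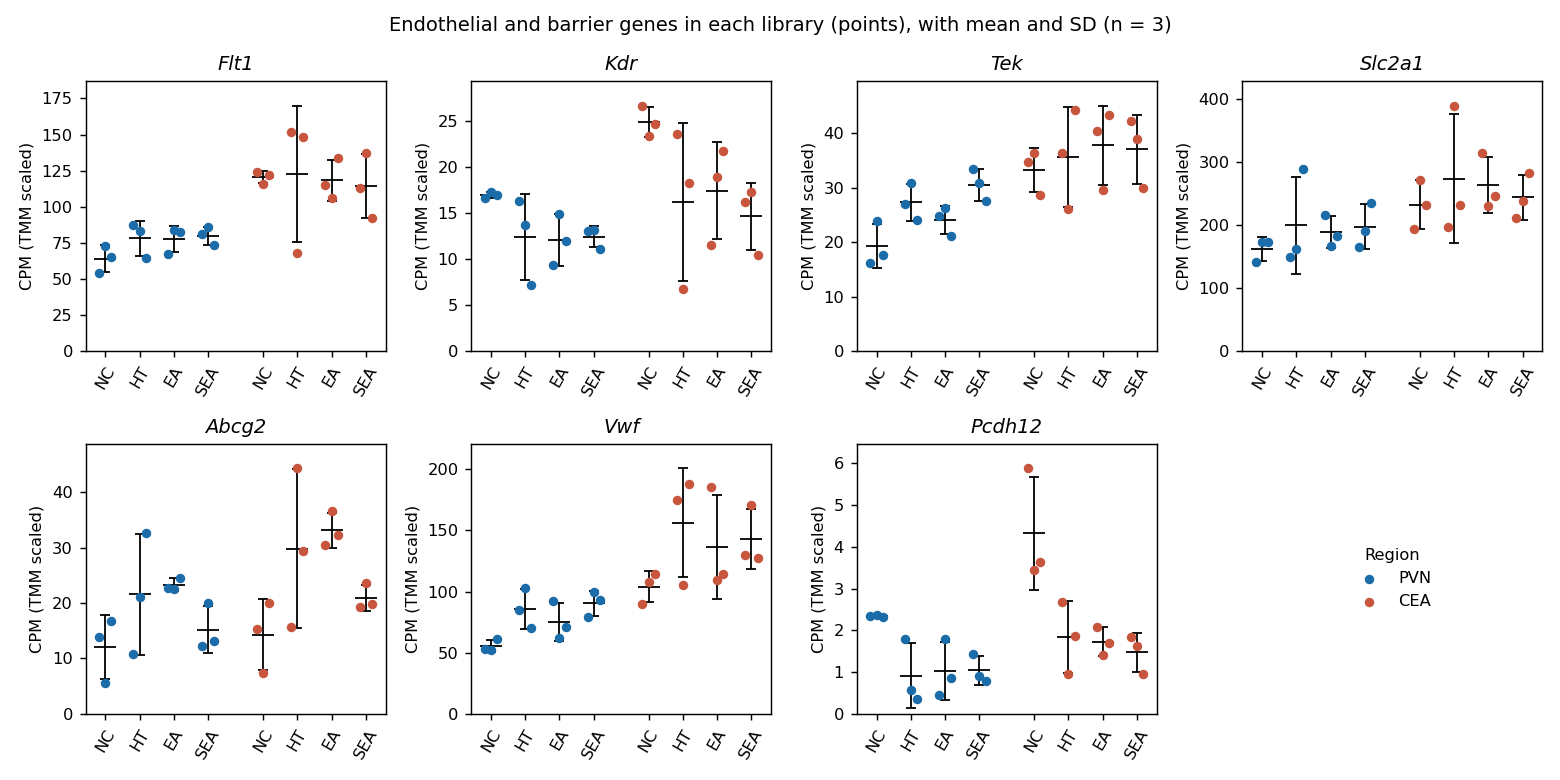
Level of 7 endothelial and barrier genes in CPM (vertical axis, from 0) in each of 24 libraries, by treatment (horizontal axis) and region (colour); points are libraries and bars the mean and SD of 3. Flt1 and Vwf had higher means in CEA than in PVN, Kdr and Pcdh12 had their highest means in NC, and CEA HT has 1 library with low Flt1 and Kdr and high Slc2a1 and Abcg2.

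The first question was whether the vessels of both regions differ in unoperated rats. Endothelial genes were higher in CEA than in PVN: 5 of 7 passed the test, all in this direction, and all 7 fold changes were positive. Flt1, the VEGF receptor that binds the ligand tightly and signals weakly, had 54.3, 73.1 and 65.0 CPM in the PVN NC libraries and 124, 116 and 122 in the CEA NC libraries. The groups were far apart, with a log2 difference of 0.91 ± 0.13 (SE, adjusted p = 0.0031 by edgeR's quasi-likelihood test). Vwf, the clotting factor stored in endothelial cells, had 53.3, 52.0 and 61.3 CPM in PVN NC and 89.6, 108 and 115 in CEA NC. The log2 difference was 0.90 ± 0.13 (adjusted p = 0.0033 by edgeR). Every CEA library was above every PVN library for both genes.

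Kdr, the main signalling receptor for VEGF, had 16.6, 17.3 and 16.9 CPM in PVN NC and 26.6, 23.3 and 24.6 in CEA NC. The 3 libraries of PVN lay close together, and the log2 difference was 0.55 ± 0.12 (adjusted p = 0.013 by edgeR). Tek, the angiopoietin receptor, had 16.3, 23.9 and 17.6 CPM in PVN NC and 34.7, 36.5 and 28.7 in CEA NC. Its log2 difference was 0.79 ± 0.18 (adjusted p = 0.018 by edgeR). Slc2a1 had 141, 174 and 173 CPM in PVN NC against 193, 272 and 232 in CEA NC, a log2 difference of 0.51 ± 0.15 (adjusted p = 0.045 by edgeR). No PVN library of these 3 genes reached the lowest CEA library.

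Pcdh12 had 2.34, 2.36 and 2.32 CPM in PVN NC and 5.88, 3.43 and 3.65 in CEA NC. These groups did not overlap, but the log2 difference of 0.88 ± 0.28 did not pass (adjusted p = 0.052 by edgeR). It passed with RLE size factors, without mitochondrial genes and in DESeq2, with adjusted p of 0.0498, 0.0454 and 0.0468. Abcg2 had 13.8, 5.65 and 16.8 CPM in PVN NC and 15.4, 7.40 and 20.0 in CEA NC. Its ranges overlapped, and the interval of the log2 difference ran from -0.84 to 1.32 (adjusted p = 0.74 by edgeR). Replicate 2 was the lowest for Abcg2 in both regions. In 3 of 3 replicate numbers the CEA library was above the PVN library, and with the number as a block the log2 difference was 0.26 (adjusted p = 0.22 by edgeR).

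These counts have to be read against the whole table. Between the regions 26.4% of 16748 tested genes passed in NC, 12.7% higher and 13.7% lower in CEA, and 45.3% had groups that did not overlap, against 6 of 7 here. The median log2 difference of the 7 was 0.79, and that of all tested genes -0.013. Leaving out 1 library left 3 to 5 of the 7 called. The calls of Slc2a1 and Tek were the ones most often lost: that of Slc2a1 without CEA NC replicate 2 or 3 or any 1 PVN NC library, that of Tek without CEA NC replicate 2, PVN NC replicate 1 or PVN NC replicate 3, and that of Kdr without CEA NC replicate 3.

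Over all 4 treatments, with 12 libraries a region, 6 of 7 passed and were higher in CEA, beside 56.6% of all tested genes (27.1% higher and 29.6% lower). The log2 differences were 0.82 ± 0.11 for Vwf, 0.78 ± 0.25 for Pcdh12, 0.67 ± 0.11 for Flt1, 0.53 ± 0.096 for Tek, 0.44 ± 0.12 for Slc2a1 and 0.43 ± 0.17 for Kdr (SE), with adjusted p from 2.3e-06 to 0.036 by edgeR. Abcg2 was at 0.42 ± 0.20 (adjusted p = 0.086 by edgeR). The call of Kdr was lost, with adjusted p up to 0.082, without any 1 of CEA NC replicate 1, CEA HT replicates 1 and 3, CEA EA replicates 2 and 3, CEA SEA replicates 1 and 2, PVN NC replicate 1, PVN HT replicate 3, PVN EA replicates 1 and 3 and PVN SEA replicate 3. Abcg2 passed without any 1 of CEA NC replicate 2, CEA HT replicate 1, or the third replicate of PVN NC or of PVN HT, with adjusted p from 0.032 to 0.039 by edgeR.

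**Figure D2:**
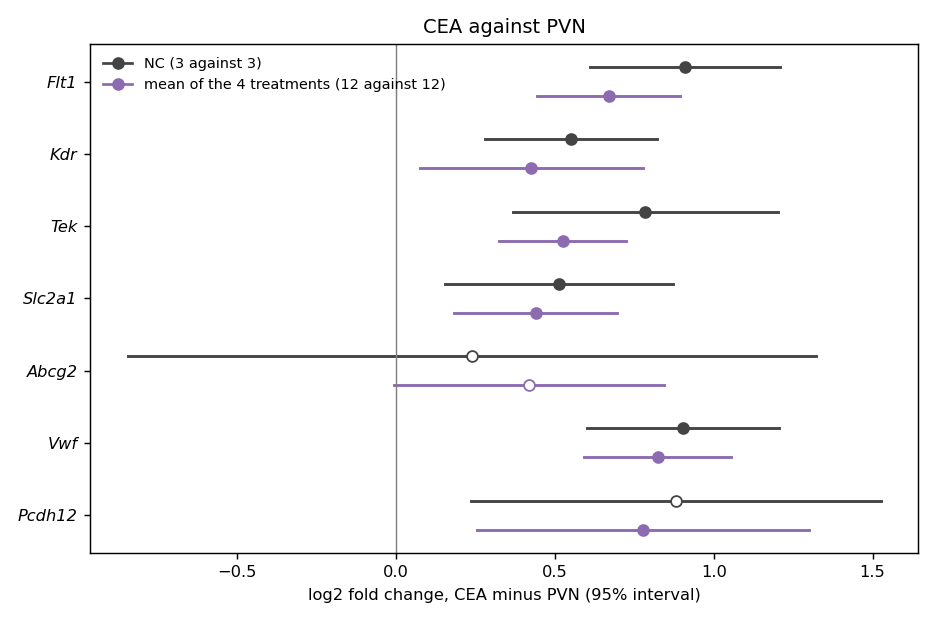
Log2 fold change of 7 genes, CEA minus PVN (horizontal axis), in NC libraries and over the 4 treatments; lines are 95% intervals, filled points passed at an adjusted p of 0.05 and open points did not. All 14 points lie above 0, and both values of Abcg2 are open.

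Most genes of the other vascular lists that passed in NC were also higher in CEA, and their log2 differences are given in parentheses. Over all tested genes 12.7% were higher and 13.7% lower, and the shares of the lists stand against these. Of 16 genes of endothelial junction and adhesion, 11 were higher in CEA and 1 lower, with a median log2 difference of 0.60. Among those higher were Ocln, a tight junction protein (0.87), Tjp1, its anchor ZO-1 (0.64), Podxl, a sialomucin of the vessel surface (0.64), and Eng, a TGF-beta coreceptor (0.59), and Cgn, a junction adaptor also found in epithelia, was lower (-1.74). Of 24 barrier transporters and carriers, 8 were higher and 0 lower (median 0.35), among them Abcb1b (0.71), the paralog of Abcb1a, and Slco2b1 (0.76) and Slco1a4 (0.58), organic anion carriers. Over all treatments 10 of these 24 were higher and 4 lower (median 0.089), beside 27.1% and 29.6% of all tested genes. In the junction and adhesion list 13 of 16 were then higher and 1 lower (median 0.50). The Abcb1b row spans 291995 bases of chromosome 4 with 14132 bases of counted sequence, and reads of near-identical ABC transporter copies may be divided by the counting.

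Of 21 tested endothelial transcription factors, 7 were higher, among them Ets1 (0.79), Erg (0.74), Fli1 (0.80) and Epas1 (0.43), and Nr2f2, a factor of venous identity, was lower (-0.62). Members of VEGF and angiopoietin signalling went both ways, with 5 of 18 higher and 4 lower. Apln, a peptide of growing vessels (1.08), and Pdgfb, which recruits pericytes (0.79), were higher, while Nrp2 (-1.74), Nrp1 (-0.64), both coreceptors for VEGF that neurons also express, and the ligand Pgf (-2.04) were lower. Of 18 genes of the Wnt programme that maintains the barrier, 3 were higher and 0 lower: Adgra2, the coreceptor GPR124 (0.90), the ligand Wnt7a (0.50) and the inhibitor Nkd1 (0.92). With 16.7% of its genes called higher, this list was close to the whole table by that count in NC. Its median was 0.46, and 16 of 18 values were positive. Over all treatments 10 of 18 were higher and 1 lower, beside 27.1% and 29.6% of all tested genes. Of 12 tested genes of open or inflamed endothelium, Lrg1, a glycoprotein of inflamed vessels (1.57), was higher and Socs3, a cytokine feedback inhibitor (-1.31), lower. Over all treatments 5 of these 12 were higher and 0 lower. The transcription factors then had 15 of 21 higher and 1 lower, and VEGF and angiopoietin signalling 10 of 18 higher and 6 lower.

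Markers of other cells moved with region too, and their NC counts stand beside the same 12.7% of all tested genes higher and 13.7% lower. Of 9 tested pericyte markers 4 were higher in CEA (Abcc9, Pdgfrb, Kcnj8 and Rgs5, 0.72 to 1.33), with summed levels of 138 to 213 CPM over all PVN libraries and 198 to 338 over CEA libraries. All 7 oligodendrocyte markers were higher, with sums of 9879 to 16556 CPM in PVN and 26163 to 43341 in CEA, and so were 3 of 7 tested markers of microglia and leukocytes. Of 8 neuronal markers 1 was higher and 2 lower, and of 9 tested markers of choroid plexus and ependyma 2 were higher and 3 lower. None of 8 astrocyte, 6 smooth muscle, 8 fibroblast or 9 blood markers passed in NC. Over all treatments, 9 of 9 pericyte, 5 of 7 smooth muscle, 3 of 8 fibroblast, 4 of 9 blood, 7 of 10 microglia and leukocyte and 7 of 7 oligodendrocyte markers were higher in CEA and none lower. Of 8 astrocyte markers 2 were higher and 4 lower. These counts stand beside 27.1% of all tested genes higher and 29.6% lower. The part of these cells in the difference of the endothelial genes was not tested.

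The second question was what the operation did. None of the 7 genes passed the test in any of the comparisons between treatments by edgeR. In PVN, HT against NC called 0 of the 7, beside 0.0120% of all genes, and DESeq2 also called 0. At an unadjusted p under 0.05 there were 2 of 7 with higher values in HT (Tek and Vwf) beside 5.69% of all genes, and 1 with lower values (Pcdh12) beside 5.35%. In 4 of 7 (these and Kdr) the groups did not overlap, beside 17.1%. With the 9 operated libraries together, 0 of 7 passed beside 0.0639%, 5 of 7 had an unadjusted p under 0.05 beside 29.8%, and 3 did not overlap beside 4.18%. DESeq2 called 2 of them in this comparison, Vwf and Tek.

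Vwf had the lowest p of the 7 between operated and NC libraries in PVN. It had 53.3, 52.0 and 61.3 CPM in PVN NC, 84.6, 103 and 69.9 in HT, 92.2, 61.8 and 70.9 in EA, and 79.3, 99.4 and 92.7 in SEA. Each of the 9 operated libraries was above the 3 NC libraries, the nearest by less than 1 CPM. The log2 difference was 0.59 ± 0.14 (adjusted p = 0.077 by edgeR, 0.0038 by DESeq2). In CEA, Vwf had 89.6 to 115 CPM in NC, 175, 106 and 188 in HT, 185, 110 and 114 in EA and 129, 171 and 128 in SEA. Here 6 of 9 operated libraries were above all NC libraries, and the log2 difference was 0.48 ± 0.21 (adjusted p = 0.9998 by edgeR).

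Pcdh12 was at the other end. It had 2.32 to 2.36 CPM in PVN NC and 0.358 to 1.80 over the 9 operated libraries, with a median of 0.852. In CEA it had 3.43, 3.65 and 5.88 CPM in NC and 0.946 to 2.68 over the operated libraries, with a median of 1.70. In both regions all 9 operated libraries lay below all 3 NC libraries. The log2 difference was -1.23 ± 0.41 in PVN (adjusted p = 0.088 by edgeR) and -1.35 ± 0.29 in CEA (unadjusted p = 0.00062, adjusted p = 0.9998 by edgeR).

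Kdr had lower means after the operation in both regions, and the differences did not pass. In PVN it had 16.6 to 17.3 CPM in NC and 7.22 to 16.3 over the operated libraries, with no overlap. In CEA, 8 of 9 operated libraries were below all NC libraries, with 6.79 to 23.5 CPM against 23.3 to 26.6. The log2 differences were -0.46 ± 0.19 in PVN (adjusted p = 0.14 by edgeR) and -0.63 ± 0.29 in CEA (adjusted p = 0.9998 by edgeR). The upper end of the interval in CEA was 0.0036.

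The angiopoietin receptor Tek had 16.3, 23.9 and 17.6 CPM in PVN NC and 21.2 to 33.4 over the operated libraries, of which 8 of 9 were above all NC libraries. Its log2 difference was 0.49 ± 0.13 (adjusted p = 0.078 by edgeR, 0.0092 by DESeq2). In CEA it was at 0.15 ± 0.17. Flt1 was at 0.29 ± 0.11 in PVN (adjusted p = 0.12 by edgeR) and at -0.023 ± 0.20 in CEA, where 5 of 9 operated libraries were below all NC libraries and 4 were above. Kdr and Flt1 had values on opposite sides of 0 in PVN.

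Of the transporters, Abcg2 had 5.65 to 16.8 CPM in PVN NC and 10.8 to 32.7 after the operation, and 7.40 to 20.0 in CEA NC against 15.7 to 44.3. The log2 differences were 0.71 ± 0.34 and 0.95 ± 0.31, and 6 of 9 operated libraries were above all NC libraries in each region. These values moved with the NC libraries, from 0.37 without PVN NC replicate 2, where Abcg2 was lowest, to 1.03 without PVN NC replicate 3, and in CEA from 0.65 without NC replicate 2 to 1.28 without NC replicate 3. Slc2a1 was at 0.26 ± 0.18 in PVN and 0.17 ± 0.20 in CEA, with ranges that overlapped. None of these 4 values passed.

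**Figure D3:**
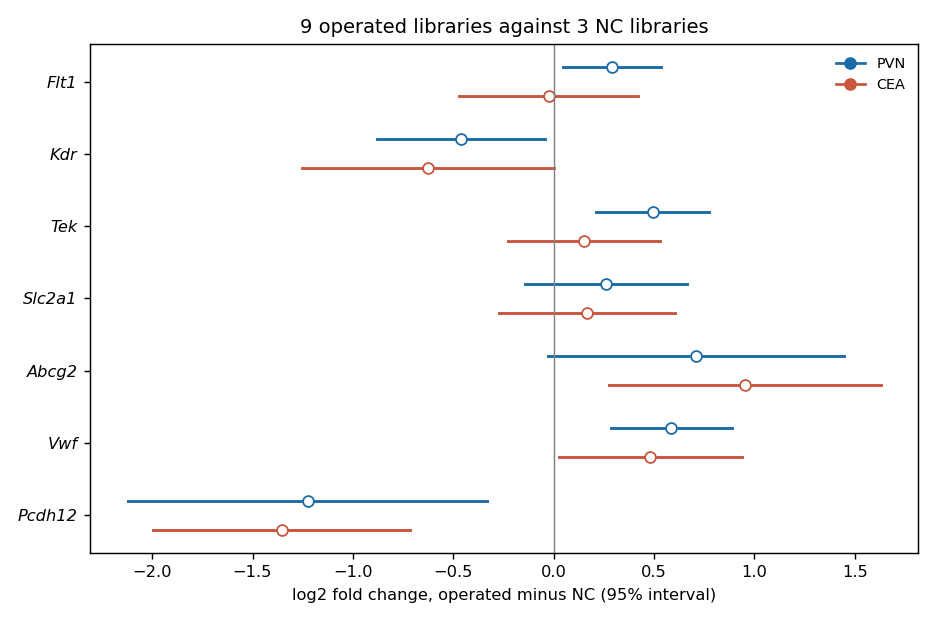
Log2 fold change of 7 genes, 9 operated libraries minus 3 NC libraries (horizontal axis), in PVN and CEA; lines are 95% intervals and all points are open because none passed at an adjusted p of 0.05. Pcdh12 lies near -1.3 in both regions, Kdr below 0, and Vwf and Abcg2 above 0 in both.

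PVN NC replicate 2 bore on these results. Without it, 3 of the 7 passed between operated and NC libraries in PVN: Tek at 0.68 (adjusted p = 0.00092), Vwf at 0.54 (adjusted p = 0.022) and Flt1 at 0.40 (adjusted p = 0.022, all by edgeR). Between HT and NC, Tek (0.68) and Vwf (0.58) then passed. Between operated and NC libraries, 5885 of 17448 tested genes passed in the fit without this library. With 2 NC libraries, the spread within NC rests on a single pair. This also holds without PVN NC replicate 1 or 3, where 1 and 0 genes passed.

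In CEA, 0 of the 7 passed for HT against NC, beside 0.00% of 16413 tested genes, and 0 passed for operated against NC, beside 0.00% of 17046. DESeq2 called 0 of the 7 in both. An unadjusted p under 0.05 was found for 3 of 7 (Abcg2, Vwf and Pcdh12) in each, beside 3.75% and 2.82% of all genes. Pcdh12 was the one gene without overlap in each, beside 10.4% and 0.587%. Both comparisons share the NC and HT libraries, and those of PVN likewise. Whether PVN and CEA libraries share rats is not given, so like values in both regions may not be separate results. The effect of HT in CEA minus that in PVN was called for 0 of 7, beside 0.00%, with 0 of 7 at an unadjusted p under 0.05 beside 12.1% and 0 of 7 in DESeq2. For Pcdh12 the difference of the effects was 0.12, with an interval from -1.41 to 1.64, which is wide.

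Of the genes of the other vascular lists and the cell type lists, 2 passed between operated and NC libraries in PVN, beside 0.0639% of all tested genes. These were Lrg1, 1 of 12 tested genes of open or inflamed endothelium, and Abcc9, 1 of 9 tested pericyte markers. In these lists 7 of 12 and 6 of 9 log2 differences were positive, with medians of 0.037 and 0.20. Lrg1 had 0.553 to 0.878 CPM in NC and 2.72 to 7.88 over the operated libraries, a log2 rise of 2.43 ± 0.37 (adjusted p = 0.047 by edgeR). In CEA, Lrg1 had 1.32 to 2.78 CPM in NC and 4.89 to 18.6 after the operation, again without overlap, and did not pass. Abcc9, a potassium channel subunit of pericytes, rose by 0.70 ± 0.11 in PVN (adjusted p = 0.047 by edgeR), from 16.3 to 23.7 CPM in NC to 30.7 to 38.0. Both calls were close to the threshold: they were lost with the replicate block (adjusted p = 0.069 for both) and with RLE size factors (adjusted p = 0.0501 for both). Leaving out 1 library ended the call of Lrg1 for 10 of 12 libraries, all but PVN EA replicate 2 and PVN NC replicate 2, and that of Abcc9 for 11 of 12, all but PVN NC replicate 2, with adjusted p up to 0.30 for both by edgeR. No other gene of the 6 vascular lists or of the lists of cell type markers passed there, and none did in CEA. The summed blood markers ran from 325 to 439 CPM in PVN NC and from 134 to 366 over the operated PVN libraries, and their part in the values above was not tested.

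The third question was whether current through the needles made a difference. Against HT, EA called 0 of 7 in PVN (beside 0.0961% of all genes) and in CEA (0.00%), and SEA called 0 of 7 in PVN (0.00%) and in CEA (0.00%). None of the 7 had an unadjusted p under 0.05 in these 4 comparisons, where 5.67%, 3.19%, 4.38% and 3.07% of all genes did, and DESeq2 called none. The HT libraries differed widely among themselves: Kdr had 23.5, 6.79 and 18.3 CPM in CEA HT, and Slc2a1 had 150, 162 and 289 in PVN HT. The intervals were wide, from -0.88 to 1.06 on the log2 scale for Kdr in CEA EA against HT.

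EA against SEA gave 1 gene with separate groups in both regions, Abcg2. Its values in PVN and CEA columns that stand side by side had r = 0.98 with each group's mean removed. The regions may therefore not be separate results for Abcg2. In PVN it had 22.8, 22.6 and 24.6 CPM in EA and 12.3, 20.1 and 13.2 in SEA. In CEA it had 30.5, 36.6 and 32.2 CPM in EA and 19.3, 23.6 and 19.9 in SEA. The 3 EA libraries were above the 3 SEA libraries in each region, with log2 differences of 0.62 ± 0.17 (unadjusted p = 0.0049, adjusted p = 0.92 by edgeR) and 0.68 ± 0.13 (unadjusted p = 0.00081, adjusted p = 0.9999 by edgeR). Tek in PVN was lower in EA, with 24.8, 26.3 and 21.2 CPM against 33.4, 30.8 and 27.5, a log2 difference of -0.34 ± 0.11 (adjusted p = 0.92 by edgeR). So 0 of 7 passed in either region, beside 0.00% of all genes in PVN and 0.00% in CEA. An unadjusted p under 0.05 was found for 2 and 1 of 7, beside 5.21% and 1.99%, and no overlap for 2 and 1 of 7, beside 10.1% and 6.83%. DESeq2 called 0 in both.

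Within groups the genes did not vary as a block. Taking each library's deviation from its group mean in log2 CPM, Slc2a1 ran against Kdr across the 24 libraries (Pearson's r = -0.90, Spearman's rho = -0.80), and r was -0.90 in PVN and -0.92 in CEA. Without CEA HT replicate 2 and PVN HT replicate 3, the pair farthest out, r was -0.82. The columns of this pair stand side by side. Over such neighbours of PVN and CEA the deviations had r = 0.96 for Slc2a1 and 0.97 for Kdr, so the regions may not be separate results. Kdr and Flt1 went together (r = 0.87, rho = 0.84), as did Flt1 and Tek (r = 0.72) and Kdr and Pcdh12 (r = 0.71). Abcg2 was negative with each of Flt1, Kdr, Tek and Pcdh12, with r from -0.44 to -0.51, and Vwf had r from -0.16 to 0.51 with the others. All genes of a library share its depth and its dissection, and these values describe the libraries.

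The 24 barrier transporters and carriers differed in how they went with Slc2a1: 8 had a positive r and 16 a negative one, with a median of -0.39 and values near 0 for Spock2 (0.044), Insr (0.17), Bsg (0.19) and Slc16a1 (-0.19). Those given next lay at the extremes. Mfsd2a, the lipid carrier that keeps vesicle transport low, had r = 0.93 with Slc2a1 (rho = 0.91, and 0.87 without the pair farthest out). Slc3a2, the heavy chain of the large amino acid carrier, had r = 0.89. Tfrc, the transferrin receptor that brings iron across, had r = -0.93 (rho = -0.89, and -0.89 without the pair farthest out). In CEA HT, replicate 2 had 71.2 CPM of Mfsd2a and 62.6 of Tfrc, while replicates 1 and 3 had 19.8 and 27.7 of Mfsd2a and 138 and 136 of Tfrc. In PVN HT, replicate 3 had 45.6 CPM of Mfsd2a, and replicates 1 and 2 had 12.6 and 16.8. These pairs were chosen after their values were seen.

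**Figure D4:**
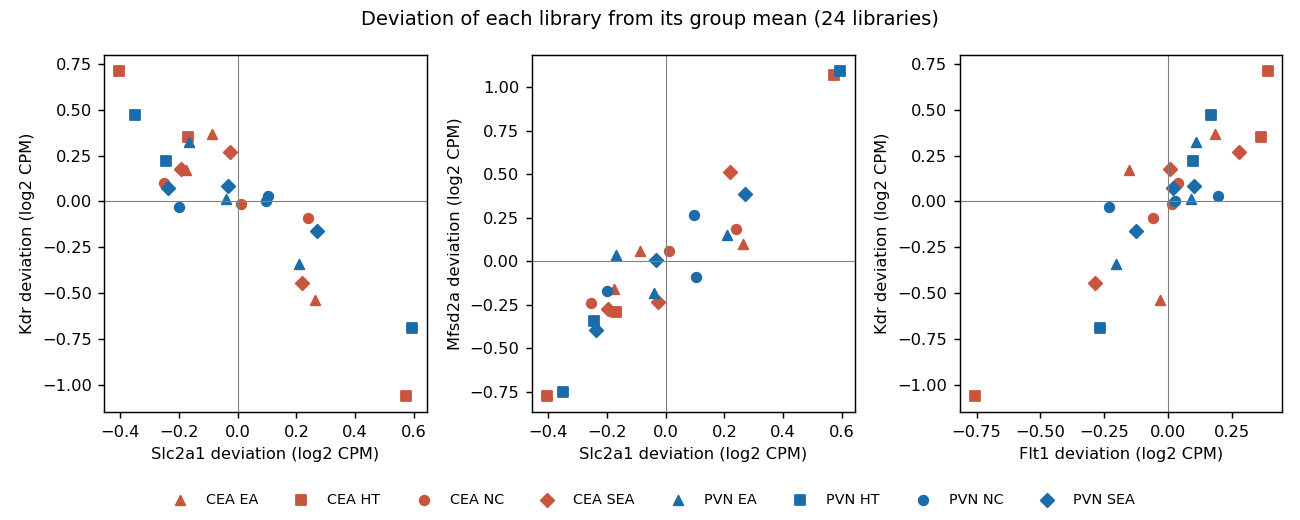
Deviation of each of 24 libraries from its group mean in log2 CPM, for Slc2a1 against Kdr, Slc2a1 against Mfsd2a and Flt1 against Kdr (axes named in each panel); colour gives the region and marker shape the treatment. The panels show r of -0.90, 0.93 and 0.87, with 1 HT library of each region at an extreme end.

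The pattern of the 7 genes as a whole was taken as their mean deviation, with the log2 CPM of each gene first divided by its SD over the 24 libraries. Among 14618 genes with which it was compared over the 24 libraries, Coil (r = 0.92), Ubqln4 (0.91), Arid1b (0.89), Wsb2 (0.88), Sorcs2, Exd2 and Zfp365 (each 0.87) and Pip5k1c (0.86) were nearest. Flt1 and Tek had r of 0.91 and 0.74 with the mean, while Slc2a1 had -0.52 and Abcg2 -0.18. Only 3 of the 8 nearest genes were the same when ranks were used. For Kdr alone the nearest were Prom1 (0.93), Nrp1 (0.92) and Adgra2 (0.90), and for Slc2a1 alone Pla2g3 (0.96), Tnfrsf11a and Bcl6 (each 0.95), a choice made after the values were seen.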

How the data were processed

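RNA was taken from the PVN and CEA in 4 groups, with 3 libraries per group and region, prepared by a strand-specific protocol. The authors aligned reads with HISAT2 and counted them with featureCounts, and the deposited values are raw counts per gene, with the gene length in bases. Versions are not given in the sources used here. The study's methods name mRatBN7.2, the processing notes name the human builds GRCh38 and hg38, and the deposited coordinates run to 282724300 on chromosome 1, so the build of the table is not settled and its coordinates are given as deposited. 1 stray second header line in the table exchanges the names of CEA EA replicates 2 and 3; the names of the first line were used. The study's methods say that the brain samples were of different animals in one batch. They divide 12 rats into the groups and the table has 24 libraries, and which libraries, if any, share a rat is not given in the sources used here. The p-values measure the spread between libraries. No 2 libraries held identical values.

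Samples were grouped by their titles. Counts were tested with edgeR 4.0.16 in R 4.3.3 (filterByExpr, TMM, quasi-likelihood F test, two-sided, Benjamini-Hochberg over all genes tested, threshold 0.05), each comparison on its own groups, 13 in all. The operated libraries were the mean of HT, EA and SEA. The study used DESeq2, run here (1.42.0) as an alternative beside RLE size factors, libraries without the 37 mitochondrial genes, no count filter, all 12 libraries of a region, the replicate number as a block, and leaving out each library. Levels are CPM scaled by TMM over 24 libraries, and deviations used log2 CPM with a prior count of 2. Confidence intervals are at 95%. The code was tested on simulated data.

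Genes, lists and tests were chosen with earlier results of these data known. Named are all 10 symbols, the 5 genes of lowest p per list that passed in a comparison, and the 8 genes nearest in pattern. Replicate numbers of NC libraries paired across regions by their deviations (r = 0.29, 0.13 and 0.20), and those of CEA HT and NC likewise (r = 0.24, 0.18 and 0.29), while no source says that a number marks a rat. A promoter was not analysed here for Vwf, Tek and Pecam1.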

Additional observations from a re-analysis of the deposited data

How the results depend on the processing

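For the region in NC, 5 of the 7 genes were called, 6 with RLE size factors, without mitochondrial genes and in DESeq2, 5 without the count filter and 5 with the replicate number as a block, and 3 to 5 when 1 library was left out. Over the treatments the count was 6 with the replicate block and 5 to 7 when 1 library was left out. Between operated and NC libraries in PVN the count was 0, 2 in DESeq2 and 0 to 3 when 1 library was left out, and between HT and NC in PVN 0 to 2. In the other comparisons between treatments it was 0 in every alternative. The replicate block changed no call among the 7 genes. It follows the replicate number, which no source says marks a rat. Some PVN and CEA columns of HT and EA that stand side by side differ in number. The block could not take up what such columns share. For all genes, the calls between operated and NC libraries in PVN numbered 11, 2277 in DESeq2, 3 with RLE size factors and 0 with the replicate block. For HT against NC in PVN they numbered 2, with 31 in DESeq2, 4 without the count filter and 0 with all 12 libraries of the region.

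Signs turned only in values that had not passed. With the replicate block, Kdr was at 0.012 in PVN EA against HT, Slc2a1 at 0.029 in PVN SEA against HT, Flt1 at -0.036 in CEA HT against NC and at 0.011 in CEA EA against HT. Without the count filter Pcdh12 was at 0.0009 in PVN EA against SEA. Leaving out 1 library at a time turned the sign of the following log2 values, given as their lowest to highest. In PVN HT against NC these were Slc2a1 -0.066 to 0.47. In PVN EA against HT, Abcg2 -0.21 to 0.55, Slc2a1 -0.25 to 0.28, Flt1 -0.13 to 0.079, Kdr -0.31 to 0.21 and Pcdh12 -0.47 to 1.15. In PVN SEA against HT, Slc2a1 -0.19 to 0.34, Flt1 -0.092 to 0.11, Kdr -0.27 to 0.25, Vwf -0.050 to 0.23 and Pcdh12 -0.19 to 1.15. In PVN EA against SEA, Slc2a1 -0.18 to 0.084, Flt1 -0.096 to 0.054, Kdr -0.21 to 0.11 and Pcdh12 -0.66 to 0.33. In CEA HT against NC, Slc2a1 -0.086 to 0.43, Flt1 -0.14 to 0.34 and Tek -0.068 to 0.31. In CEA EA against HT, Abcg2 -0.17 to 0.54, Slc2a1 -0.25 to 0.28, Flt1 -0.35 to 0.11, Kdr -0.27 to 0.46, Tek -0.10 to 0.27 and Pcdh12 -0.40 to 0.28. In CEA SEA against HT, Slc2a1 -0.37 to 0.15, Flt1 -0.43 to 0.046, Kdr -0.55 to 0.19, Tek -0.16 to 0.21 and Pcdh12 -0.65 to 0.039. In CEA EA against SEA, Slc2a1 -0.028 to 0.25, Flt1 -0.059 to 0.22, Tek -0.079 to 0.19 and Vwf -0.34 to 0.10. In CEA operated against NC, Flt1 -0.082 to 0.076. In CEA against PVN in NC, Abcg2 -0.11 to 0.56. In the HT effect of CEA minus PVN, Abcg2 -0.17 to 0.66, Slc2a1 -0.41 to 0.29, Flt1 -0.44 to 0.026, Kdr -0.54 to 0.20, Vwf -0.19 to 0.18 and Pcdh12 -0.27 to 1.07. The cause of these turns was not tested. Fewer libraries also mean fewer degrees of freedom. Depth limited Pcdh12 most, which had 6 counts in its lowest library.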

Other observations

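In the count table the columns of PVN and CEA alternate. Neighbouring columns carry the same replicate number in NC and SEA, and for replicate 1 of HT and EA. In HT and EA, replicate 3 of PVN stands beside replicate 2 of CEA, and replicate 2 of PVN beside replicate 3 of CEA. With the names of the stray second header line, the EA neighbours would carry the same number. Over the 12 neighbouring pairs the log2 CPM of Abcg2 in CEA had Pearson's r = 0.98 with that in PVN (Spearman's rho = 0.95). Kdr had r = 0.96 (rho = 0.90), Slc2a1 r = 0.93 (rho = 0.84) and Vwf r = 0.86 (rho = 0.83), while Flt1 had r = 0.42. Abcg2 was higher in CEA than in PVN in 12 of 12 of these pairs. Paired by replicate number, the same genes had r = 0.90, 0.40, 0.26, 0.53 and -0.14. With each group's mean removed, the neighbouring pairs had r = 0.98 for Abcg2, 0.97 for Kdr, 0.96 for Slc2a1 and 0.86 for Vwf. Tek had 0.76, Flt1 0.64 and Pcdh12 0.51. With the group means kept, and without the 2 pairs farthest from the median in PVN, r was 0.93 for Abcg2 and 0.89 for Kdr. It was 0.86 for Slc2a1, 0.83 for Vwf, 0.78 for Pcdh12, 0.60 for Tek and 0.50 for Flt1. The pairing was looked at after the values were seen, and no source used here says which columns came from 1 rat. No comparison between groups was fitted with neighbours as pairs, except where the replicate block joined neighbours of the same number, as in NC.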
